A study of Mus musculus with 15 samples.

Results

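Many mammalian genes have paralogs, copies that arose by duplication and that encode related proteins with overlapping roles. A tissue can keep a function while it changes which copy carries it, and the exchange of embryonic for adult globins in red blood cells is the textbook case. The stomach is a setting in which such exchanges can be looked for, because the early fetal organ is a tube of dividing mesenchyme around an unspecialised epithelium, whereas the organ after weaning secretes acid, pepsinogens and mucus. Both ends of the time course were therefore compared for the member that led each gene family in RNA level.

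The fetal group held whole stomachs of C57BL/6 mice at E12.5, E13.5 and E14.5 (embryonic days), and the weaned group held stomachs of the same strain at W3, W6 and W8 (postnatal weeks). These were 6 of the 15 libraries of the series, with 1 library for each time point. The notes on sampling describe fetal samples as pooled stomachs of 3 embryos and weaned samples as single stomachs, so pooling differs with the group. The 3 time points of each group stand in for replicates, so each SD and p-value below measures the spread between neighbouring ages and not between animals. The other 9 libraries, from E15.5 to W2, were not used to choose any gene and are shown only to follow the pairs between the ends. Levels are given as FPKM, fragments per kilobase of transcript scaled to the mapped fragments of a library. The weaned mice were males and the fetal ones were not sexed. Xist, which is transcribed from the inactive X chromosome of females, had an FPKM of 54.3, 27.1 and 11.5 in the fetal libraries and 0.0715 or less in the weaned ones, so the effects of age and sex cannot be told apart.

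Depth differed little between the libraries, at about 12300000 to 17000000 fragments a library as estimated from the confidence bounds the files give beside each value. The 10 most abundant genes took 11.2% to 14.9% of the summed FPKM in the fetal libraries and 36.7% to 53.2% in the weaned ones. The labelled tissue was borne out at the weaned end, where all 11 markers of mature glandular stomach were called higher. Their summed FPKM was 395 to 546 before and 222577 to 321201 after. Several of them, such as Atp4b and Pgc, are also weaned leaders below. The 7 markers of fetal stomach mesenchyme and epithelium were mixed. Barx1, Nkx2-5 and Sox2 were called lower, Gata4, Foxa2 and Cdh1 higher, and Epcam was not called. All 5 markers of dividing cells were called lower. Single libraries stood apart in other lists. Forestomach squamous genes had a summed FPKM of 18.7 to 2369 in the weaned group, lowest at W8, where Lor, a cornified envelope protein, was at 6.49 against 1254 at W3. The 8 liver genes had a summed FPKM of 34.4 to 66.6 in the fetal and 1527 to 2403 in the weaned libraries, most of it from Apoa1 (1259, 2270 and 2125 at W3, W6 and W8), which with Ttr was called higher. Alb, the defining liver gene, was at 65.4 at W3 and at 0.869 and 0.672 at W6 and W8. Of 7 markers of enteric neurons and glia 6 were called lower, and 3 of 8 leukocyte markers were called higher. The part of these cell types in the results below was not tested, and in whole organs fewer cells of a type and less RNA per cell cannot be told apart.

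Across all genes, 16042 symbols passed the low-value limit (FPKM of at least 1 in 1 of the 6 libraries) and were tested with limma on log2(FPKM + 1), with a call at a Benjamini-Hochberg adjusted p under 0.01. Of these 13.8% were called higher and 52.6% lower in the weaned group, and the median log2 difference was -0.72. When each library was rescaled by its median ratio to the others, the median difference was -0.11 and the counts were 4191 higher and 4832 lower, against 2218 and 8437 without rescaling. For this reason the families were compared mainly by the order of their members within a library, which rescaling leaves as it is, and by their ratio. Because 1 was added before the logarithm, rescaling can shift the ratio where a gene is near 0. The test of members relative to their family was run without rescaling only. FPKM is a level per transcript length, so levels of different genes are set side by side below on that scale.

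The members were 1246 genes in 301 families listed by protein family and role, of which 1232 were in the files and 1062 were tested. The other 170 stayed under the limit. Of the tested members, 89 passed it through fetal libraries alone and 83 through weaned libraries alone. Among the tested members, 245 (23.1%) were called higher and 458 (43.1%) lower, with a median log2 difference of -0.47. After rescaling 366 were called higher and 328 lower. Relative to the sum of the other members of its family, 306 members (28.8%) were called higher and 363 (34.2%) lower in limma. The same test over 6679 genes with a listed or symbol-based family called 27.3% higher and 28.9% lower.

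A family was said to change its leading member when 1 gene had the highest FPKM in all 3 fetal libraries and another in all 3 weaned libraries, each with at least 5 FPKM where it led. This held for 61 of the 254 listed families that had a member of at least 5 FPKM in every library (24%). The background, taken from 1266 families formed from gene symbols alone that met the same limit, was 18.2%. Those symbol-based families need not be paralogs and were not matched to the listed ones in size or level. The listed families were chosen with earlier results of these data known, so the gap between these shares was not tested and is not read as an excess. In 141 listed families the leader was the same in all 6 libraries, in 52 it varied within a group, and 47 families did not reach the limit. The leaders were picked on these 6 libraries, so the direction of each pair's ratio follows from the choice. The ratios and the calls of the leaders are therefore given as a description, with p-values from the fit over all genes. With leaders of at least 20 FPKM there were 37 such families, and against E12.5 to E17.5 as the fetal group 30. A longer fetal group can only lower the count, since 1 gene must lead in every library. Of the 20 families with the largest change of the leaders' ratio, 10 were kept with it. Those lost include the claudins, connexins, cadherins, pump beta subunits, cobalamin binders, annexins, Cox7a subunits, retinaldehyde dehydrogenases and class 3 aldehyde dehydrogenases. The exchanges were spread unevenly over roles, which was not tested. They took in 2 of 3 retinoid families, 4 of 9 adhesion families, 6 of 14 lipid metabolism families and 6 of 17 ion transport families, but 1 of 24 chromatin families, 0 of 11 translation families and 0 of 9 amino acid metabolism families. Gastric secretion families, at 2 of 8, lay near the 24% over all listed families.

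**Figure D1:**
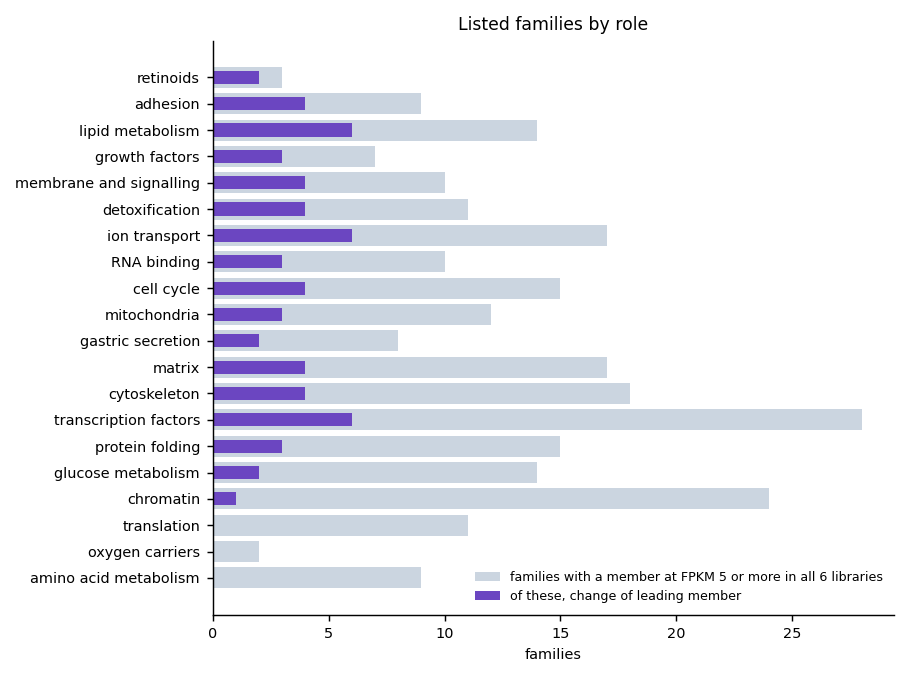
Listed families by role (vertical axis) and their number (horizontal axis): grey bars are families with a member at 5 FPKM or more in each of the 6 libraries, purple bars those with a change of leading member. Chromatin families showed 1 change among 24, and lipid metabolism and ion transport 6 each.

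The 61 exchanges were of several kinds. In 20 families the fetal leader was called lower and the weaned leader higher. In 16 the weaned leader was called higher while the fetal leader was not called, and in 10 the fetal leader was called lower while the weaned leader was not called. Both leaders were called lower in 7 families and higher in 4, and neither was called in 4. After median-ratio rescaling 21 families had a lower fetal and a higher weaned leader, 18 a higher weaned leader alone, 12 had both higher, 5 both lower, 3 a lower fetal leader alone, and 2 had neither called. The summed FPKM of the family was higher in every weaned than in every fetal library in 26 families and lower in 23, and overlapped in 12. Of the 20 families with the largest change of the log2 ratio between their leaders, 14 had a higher sum, 4 a lower sum and 2 an overlapping one. These counts of sums are without rescaling and have no share over the other families beside them. They are therefore not read as a trait of families that change leader.

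**Figure D2:**
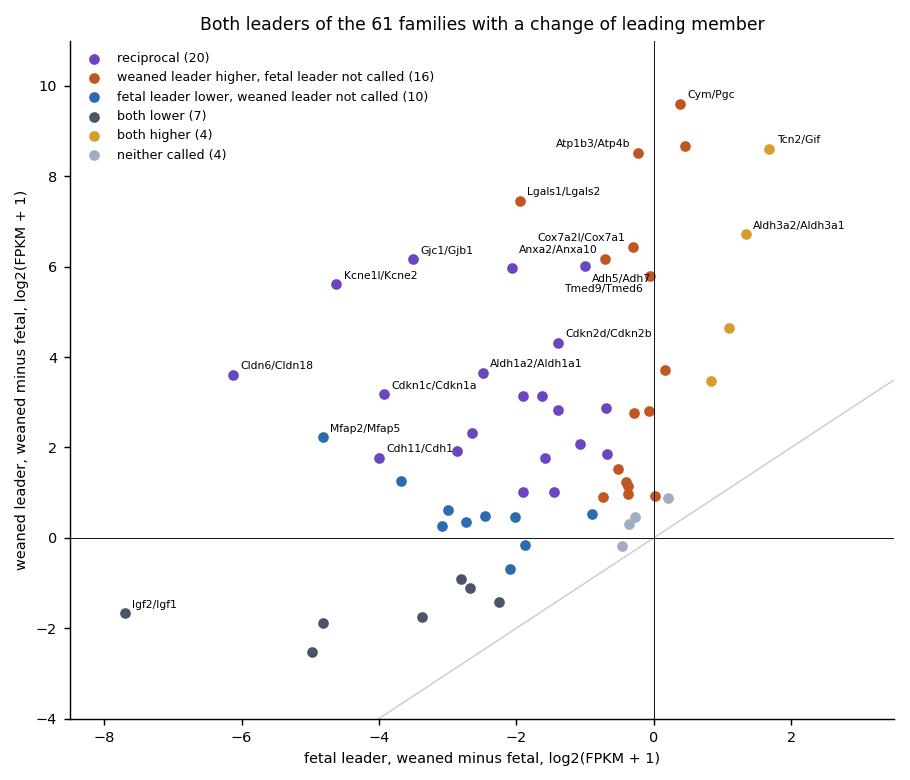
Change of the fetal leader (horizontal axis) against that of the weaned leader (vertical axis), each as the weaned minus the fetal mean of log2(FPKM + 1), for the 61 families; colours give the kind of exchange and names mark those of the 20 largest that are shown by name. Every point lies above the grey line of equal change, which the choice of leaders fixes, and the 20 purple points combine a lower fetal with a higher weaned leader.

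Families of the gastric secretory apparatus had some of the largest changes. The sodium pump and the gastric proton pump each have an alpha subunit, which transports the ions. Their beta subunit carries the alpha subunit to the membrane. Atp4a, the catalytic alpha subunit of the gastric proton pump, had an FPKM of 4.34, 4.29 and 4.72 at E12.5, E13.5 and E14.5 and 1519, 2213 and 3289 at W3, W6 and W8. The groups lay far apart, and Atp4a went from 3.56% ± 0.285 (SD, n = 3) to 92.8% ± 3.05 of the family's summed FPKM. Atp4a rose by 8.68 on the log2 scale (standard error 0.27, limma adjusted p = 2.09e-06).

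Among the beta subunits the leader changed. Atp1b3, a sodium pump subunit, had an FPKM of 74.4, 72.7 and 67.6 in the fetal and 68.4, 58.4 and 56.4 in the weaned libraries, with overlapping groups. Atp4b, the proton pump subunit, had 4.28, 6.54 and 10.1 and then 2203, 2894 and 3404. Atp4b rose by 8.52 (standard error 0.29, limma adjusted p = 2.78e-06), whereas the difference of Atp1b3 was -0.23 (adjusted p = 0.138) and became 0.56, called higher, after median-ratio rescaling. The family sum was 132 ± 16.9 FPKM before and 3165 ± 625 after, a 23.9-fold difference of the means.

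Among KCNE proteins, small subunits that set the gating of potassium channels, the exchange was reciprocal, with a ratio change of 10.23 on the log2 scale. Kcne1l, an X-linked member, had an FPKM of 29.5, 29.1 and 27.3 in the fetal and 0.534, 0.0344 and 0.108 in the weaned libraries. Kcne2, the partner of Kcnq1 in the potassium channel of parietal cells, had 0.199, 0.534 and 1.04 and then 72.5, 67.4 and 85.7. Both genes separated the groups without overlap. Kcne1l fell by 4.62 (standard error 0.17, limma adjusted p = 3.55e-06) and Kcne2 rose by 5.61 (standard error 0.21, adjusted p = 3.81e-06). This ratio depends on the value added before the logarithm, since both genes are near 0 at 1 end: it was 13.75 with 0.1 and 6.53 with 5 in place of 1. With 1 it was the largest among the 61 pairs, but with 5 the ratio of Cym and Pgc (9.19) and that of Lgals1 and Lgals2 (9.04), among others, were larger. The channel subunit itself, Kcnq1, had an FPKM of 0.879, 0.678 and 0.900 and then 27.4, 31.3 and 47.6.

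The aspartic proteases passed from chymosin to progastricsin. Cym, the milk-clotting protease, had an FPKM of 323, 600.1 and 1073 in the fetal and 7718, 307 and 194 in the weaned libraries, so its groups overlapped and its difference was 0.38 (limma adjusted p = 0.796). Pgc, a pepsinogen of chief cells, had 137, 142 and 168 and then 86122, 122459 and 151321. Pgc took 16.4% ± 5.42 of the family FPKM in the fetal and 95.8% ± 5.17 in the weaned group and rose by 9.61 (standard error 0.22, adjusted p = 1e-06). The comparison of the ends leaves out what lay between them: Cym stood at 117136 at W1 and 106792 at W2, and Pga5, another pepsinogen, at 27728 at W1. Pgc first passed Cym at W3.

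Of the cobalamin binders, both members rose. Tcn2, the plasma carrier of cobalamin, had an FPKM of 15.4, 15.3 and 18.7 and then 50.7, 55.6 and 57.7. Gif, the gastric intrinsic factor, had 3.31, 2.38 and 4.0 and then 1553, 1332 and 2081. Gif overtook Tcn2 from E17.5 on, and the log2 differences were 8.61 for Gif (standard error 0.22, limma adjusted p = 1.32e-06) and 1.68 for Tcn2 (standard error 0.13, adjusted p = 4.27e-05).

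**Figure D3:**
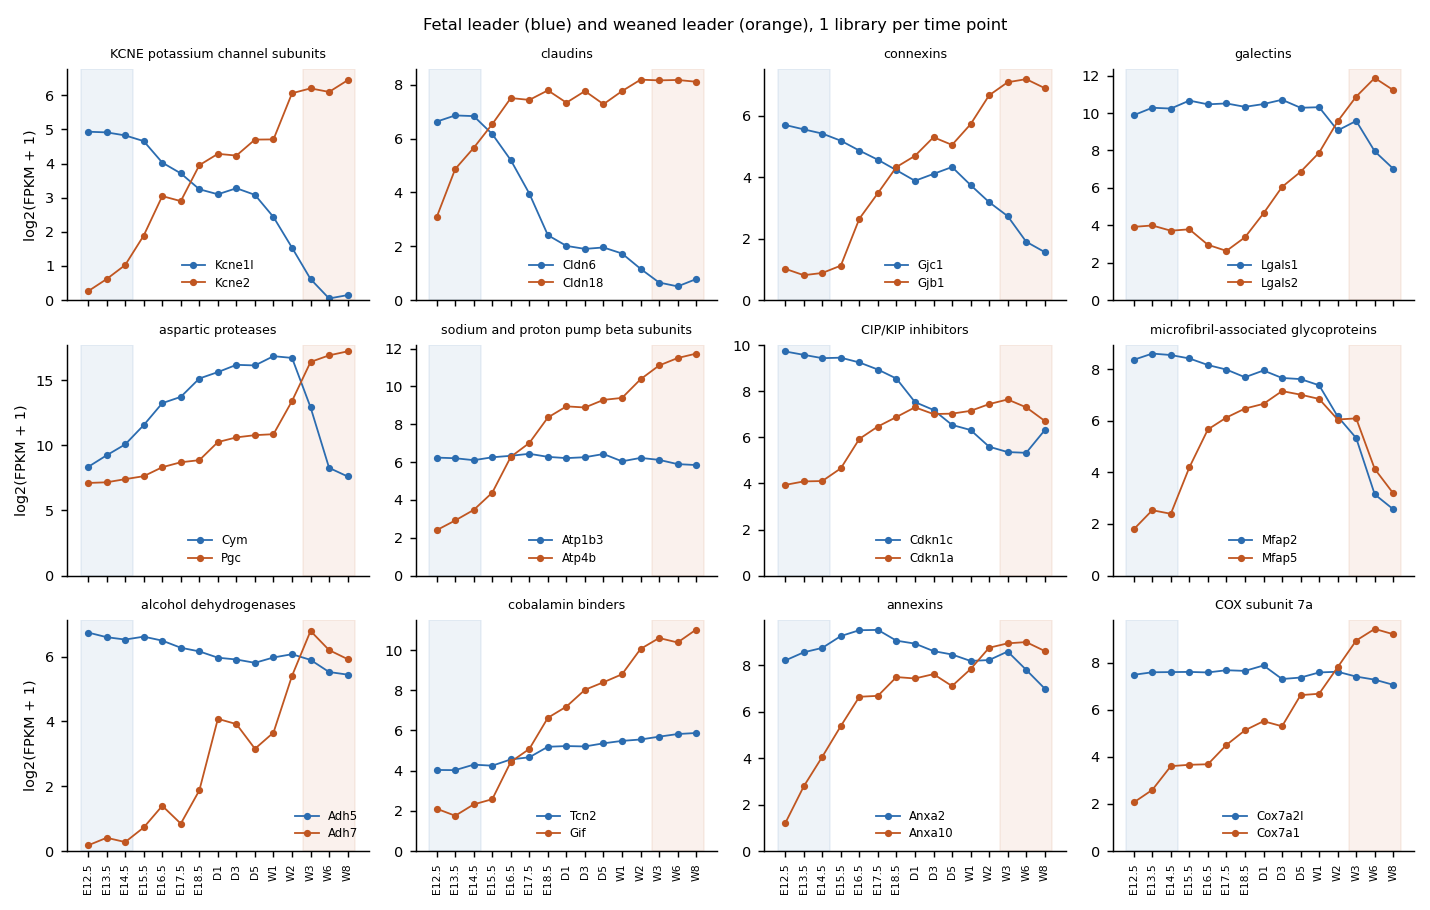
Level as log2(FPKM + 1) (vertical axes) at the 15 time points (horizontal axes) for the fetal leader (blue) and the weaned leader (orange) of 12 families among the 20 with the largest ratio changes; each point is 1 library and the shaded bands are the fetal and weaned groups. The lines of each pair cross once, from E15.5 in claudins to W3 in aspartic proteases, Mfap and alcohol dehydrogenases.

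The junction and adhesion families also changed leader. Claudins form the strands of tight junctions. Cldn6, a claudin of embryonic epithelia, had an FPKM of 97.9, 115 and 113 in the fetal and 0.574, 0.425 and 0.720 in the weaned libraries. Cldn18, whose stomach form seals the gastric epithelium, had 7.46, 28.2 and 49.4 and then 285, 288 and 275. Cldn18 was the 1 claudin above 10 FPKM in every weaned library and held 88.9% ± 4.01 of the family there, and the family sum overlapped between the groups (345 ± 93.0 and 318 ± 19.8). Cldn6 fell by 6.12 (standard error 0.13, limma adjusted p = 1e-06) and Cldn18 rose by 3.61 (standard error 0.58, adjusted p = 0.000902). Cldn18 was already increasing within the fetal group, and with E12.5 to E17.5 as the fetal group its difference was 2.30 and no longer called (adjusted p = 0.0353). Cldn3, Cldn4 and Cldn7, other epithelial claudins, were called lower, with Cldn7 at 44.4, 76.4 and 100.3 and then 7.82, 4.64 and 2.68.

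Connexins build gap junctions, through which small molecules pass between cells. Gjc1, a connexin of muscle and vessel walls, had an FPKM of 51.2, 46.3 and 42.0 in the fetal and 5.67, 2.74 and 1.96 in the weaned libraries. Gjb1, a connexin of glandular epithelia, had 1.03, 0.757 and 0.847 and then 136, 146 and 119. Gjc1 went from 51.1% ± 3.09 to 1.99% ± 0.775 of the family and Gjb1 from 0.961% ± 0.0948 to 81.7% ± 11.3. Gjc1 fell by 3.5 (standard error 0.29, limma adjusted p = 4.73e-05) and Gjb1 rose by 6.16 (standard error 0.13, adjusted p = 1e-06).

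Among classical cadherins, Cdh11, a cadherin of mesenchyme, had an FPKM of 68.8, 67.1 and 58.7 and then 5.52, 2.18 and 2.35. Cdh1, the epithelial cadherin, had 25.2, 43.2 and 58.2 and then 136, 132 and 149. At E14.5 the pair was nearly level, and Cdh1 led from E15.5. Cdh11 fell by 4.0 (standard error 0.28, limma adjusted p = 2.72e-05) and Cdh1 rose by 1.77 (standard error 0.28, adjusted p = 0.000865), a rise not called against E12.5 to E17.5, where it was 1.13.

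Vitamin A enters cells as retinol, is held there by binding proteins and is oxidised stepwise to retinoic acid, a patterning signal of the fetal gut. Rbp2, the cellular retinol binding protein of absorptive epithelium, had an FPKM of 1.52, 1.55 and 1.89 and then 205, 219 and 101. Rbp2 went from 2.91% ± 0.527 to 84.5% ± 4.0 of the family RNA, and it rose by 5.98 (standard error 0.29, limma adjusted p = 1.08e-05). Against E12.5 to E17.5 its difference was 4.0 and not called (adjusted p = 0.0147).

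Aldh1a2, the main enzyme of retinoic acid synthesis in the embryo, had an FPKM of 66.6, 54.5 and 42.9 and then 12.4, 6.91 and 7.75. Aldh1a1, a related retinaldehyde dehydrogenase, had 8.24, 11 and 13.8 and then 162, 158 and 124. Aldh1a2 fell by 2.49 (standard error 0.25, limma adjusted p = 9.16e-05) and Aldh1a1 rose by 3.65 (standard error 0.21, adjusted p = 1.6e-05). In the stretches of 50 bases used to look for shared sequence, 3.06% of those of Aldh1a1 occurred in another member of its family, the highest share among all 122 leaders.

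Alcohol dehydrogenases passed from Adh5, which oxidises formaldehyde bound to glutathione, to Adh7, the class found in stomach epithelium. Adh5 had an FPKM of 106, 95.9 and 91.1 and then 58.6, 45 and 42.5. Adh7 had 0.130, 0.328 and 0.212 and then 109.7, 72.5 and 59.6, and Adh1 followed it with 89.6, 66.9 and 52.2 after weaning. Adh7 rose by 6.02 (standard error 0.23, limma adjusted p = 3.72e-06) and Adh5 fell by 1.0 (standard error 0.16, adjusted p = 0.000808), or by 0.21, not called, after rescaling. Aldehyde dehydrogenases of class 3 both rose: Aldh3a2, which acts on fatty aldehydes, had 15.4, 17.7 and 19.5 and then 45.3, 44.4 and 47.5, and Aldh3a1 had 0.213, 0.191 and 0.247 and then 123, 199 and 84.3.

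The promoters of the Adh and Aldh1a leaders are shown because their sequences differ in a feature that the choice of leaders did not use, the number of CpG dinucleotides, which mark the broadly used type of mammalian promoter. The windows run from 250 bases before to 50 after a transcription start in RefSeq (GRCm38.p6), and CpG is in capitals. They lie at chr3:138442843-138443142 (Adh5, plus strand), chr3:138217523-138217822 (Adh7, plus strand), chr9:71215539-71215838 (Aldh1a2, plus strand) and chr19:20492333-20492632 (Aldh1a1, plus strand). The Adh7 window lies inside the span that the files give the gene, so RefSeq and the files begin it at different starts.
Adh5: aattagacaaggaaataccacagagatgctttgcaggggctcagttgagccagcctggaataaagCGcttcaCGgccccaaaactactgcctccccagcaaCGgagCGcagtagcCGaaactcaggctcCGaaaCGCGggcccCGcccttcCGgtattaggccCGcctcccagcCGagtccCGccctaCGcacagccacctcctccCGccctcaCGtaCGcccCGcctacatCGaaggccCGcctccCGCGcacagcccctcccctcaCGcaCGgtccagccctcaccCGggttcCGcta
Adh7: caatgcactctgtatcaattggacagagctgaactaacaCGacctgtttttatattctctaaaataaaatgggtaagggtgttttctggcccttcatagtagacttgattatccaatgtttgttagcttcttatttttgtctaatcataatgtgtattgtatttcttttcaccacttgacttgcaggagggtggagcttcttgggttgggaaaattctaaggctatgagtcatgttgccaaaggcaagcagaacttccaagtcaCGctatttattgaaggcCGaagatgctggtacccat
Aldh1a2: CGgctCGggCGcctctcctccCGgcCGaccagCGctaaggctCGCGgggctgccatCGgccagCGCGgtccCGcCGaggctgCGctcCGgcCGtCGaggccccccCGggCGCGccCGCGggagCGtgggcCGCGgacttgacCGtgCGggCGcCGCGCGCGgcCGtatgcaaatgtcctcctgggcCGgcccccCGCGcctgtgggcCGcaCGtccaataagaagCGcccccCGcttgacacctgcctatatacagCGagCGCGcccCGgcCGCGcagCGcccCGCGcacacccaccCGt
Aldh1a1: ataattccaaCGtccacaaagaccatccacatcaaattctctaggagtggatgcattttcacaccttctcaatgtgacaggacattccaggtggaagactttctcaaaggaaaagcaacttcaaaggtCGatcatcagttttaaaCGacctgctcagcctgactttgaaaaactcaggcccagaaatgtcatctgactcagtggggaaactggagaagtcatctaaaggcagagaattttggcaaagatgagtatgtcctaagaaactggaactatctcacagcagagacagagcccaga
The fetal leader Adh5 had 26 CpG and Aldh1a2 50, whereas the weaned leaders Adh7 and Aldh1a1 had 3 each. Among the 10995 tested genes with a promoter in the table, taking for each gene its start with most CpG, 35.8% had 26 or more, 1.9% had 50 or more and 6.14% had 3 or fewer. These examples were chosen after their promoters were seen. Of the 38 pairs with both promoters in the table, the ratio of observed to expected CpG was higher in the fetal leader in 25 and in the weaned leader in 13. Both were at 0.6 or more in 17 pairs, both under it in 9, the fetal leader alone reached it in 10 and the weaned leader alone in 2. Over all tested genes with a promoter in the table, 71.5% reached 0.6. The share was 79.7% among genes called lower and 52% among genes called higher, so a difference in this direction was not particular to the leaders. A comparison over all leaders was void, because only 75.4% of the fetal and 78.7% of the weaned leaders had a promoter in the table.

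Growth control genes made up another group. The IGF ligands, insulin-like growth factors of fetal and postnatal life, both fell. Igf2, the imprinted fetal ligand, had an FPKM of 986, 1023 and 1081 in the fetal and 6.24, 2.98 and 3.24 in the weaned libraries. Igf1 had 34.4, 40.6 and 37.5 and then 11.8, 9.10 and 12.7, so it came to lead by falling less. The log2 differences were -7.70 for Igf2 (standard error 0.23, limma adjusted p = 2.09e-06) and -1.67 for Igf1 (standard error 0.16, adjusted p = 7.4e-05), and both stayed called after rescaling.

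The inhibitors of cyclin-dependent kinases changed in both of their families. Cdkn1c, an imprinted inhibitor of the fetal tissues, had an FPKM of 847, 765 and 692 and then 40.1, 39.2 and 78.4. Cdkn1a, an inhibitor induced by the tumour suppressor p53, had 14.3, 16 and 16.2 and then 199, 157 and 104. The CIP/KIP sum was 808 ± 76.2 and then 219 ± 29.4, so Cdkn1a led a smaller family total. Cdkn1c fell by 3.92 (standard error 0.27, limma adjusted p = 2.76e-05) and Cdkn1a rose by 3.18 (standard error 0.23, adjusted p = 3.25e-05). In the INK4 family, Cdkn2d had 24.5, 25.4 and 23.9 and fell by 1.40 on the log2 scale, and Cdkn2b had 0.252, 1.43 and 2.09 and then 32.0, 45.3 and 48.0.

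The remaining families of the largest 20 were of mixed function. Lgals1, a galectin of mesenchyme, had an FPKM of 944, 1245 and 1208 and then 764, 247 and 129, and Lgals2, a galectin of gut epithelium, had 14.1, 14.9 and 12.1 and then 1882, 3752 and 2395. Lgals2 rose by 7.46 (standard error 0.25, limma adjusted p = 2.71e-06), and the difference of Lgals1 was -1.95 (adjusted p = 0.0167), or -2.64 and called when W3 was left out. In this family W3 stood apart, with Lgals2 at 39.0% of the sum there and at 69.4% and 79.4% at W6 and W8, while Lgals7, a galectin of squamous epithelium, had 1276, 653 and 7.08.

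Anxa10, an annexin of gastric mucosa, went from 1.29, 5.90 and 15.7 to 493, 512 and 392 FPKM and rose by 6.18 (standard error 0.64, limma adjusted p = 0.00011), and the former leader Anxa2 had 295, 377 and 430.2 and then 386, 223 and 127. Cox7a1, the muscle-type subunit of cytochrome c oxidase, went from 3.19, 5.06 and 11.2 to 493, 695 and 594 and rose by 6.44 (standard error 0.37, adjusted p = 1.7e-05), and the related Cox7a2l had 179, 193 and 194 and then 169.8, 155 and 133. Tmed6 went from 1.82, 3.75 and 4.77 to 210.5, 244 and 252, beside Tmed9 at 135, 146 and 154 and then 156, 137 and 124; both encode cargo receptors of the early secretory pathway. In these families the fetal leaders were not called, and the summed FPKM of the annexins overlapped between the groups. Tmed9 was called higher, by 0.73, after rescaling.

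In the microfibril proteins the reverse was seen. Mfap2 fell from 328, 388 and 373 to 39.2, 7.86 and 4.94 FPKM, by 4.82 on the log2 scale (standard error 0.64, limma adjusted p = 0.000354). Mfap5 had 2.47, 4.79 and 4.26 and then 67.2, 16.54 and 8.11, a difference of 2.23 (adjusted p = 0.0179) that was called after rescaling, at 2.91. Within the weaned group both were highest at W3.

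**Figure D4:**
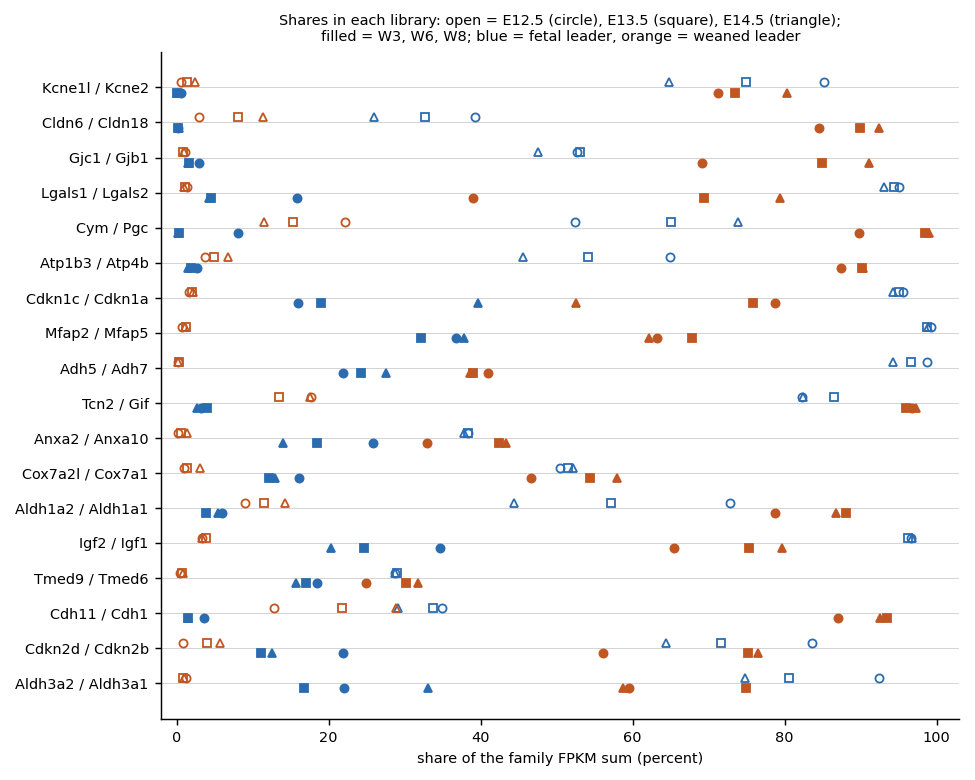
Share of the family's summed FPKM (horizontal axis, percent) held by the fetal leader (blue) and the weaned leader (orange) of families among the 20 with the largest ratio changes (rows; 2 are left out), in each fetal library (open symbols) and each weaned library (filled symbols). Fetal leaders held 25.9% to 99.3% in the fetal libraries, and among weaned leaders Lgals2 spread widest between weaned libraries, from 39.0% to 79.4%.

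The other 41 families had ratio changes of 0.29 to 5.05 on the log2 scale, and 35 of the 61 changed by at least 3. Several followed cell architecture. The lamins passed from Lmnb1 (211, 183 and 164, then 20.3, 9.04 and 13.2 FPKM) to Lmna (21, 44.2 and 71.2, then 136, 93.5 and 73.8), the laminin beta chains from Lamb1 to the epithelial Lamb3 and the beta tubulins from Tubb5 to Tubb4b. The fetal leader fell in each of these families, and the weaned leader rose in the laminins alone without rescaling. Metabolic families with a falling fetal and a rising weaned leader included the acetyl-CoA carboxylases (Acaca to Acacb), the fatty acid desaturases (Fads2 to Fads3), the acetyl-CoA acetyltransferases (Acat2 to Acat1) and the mitochondrial ADP/ATP carriers (Slc25a4 to Slc25a5). The fall of Slc25a4, from 463, 465 and 418 to 346, 239 and 261 FPKM, was not called after rescaling. Channel and transporter families with the same pattern or with both leaders rising were the monocarboxylate carriers, from Slc16a3 (15.6, 16.2 and 22.4, then 9.53, 3.36 and 1.73, not called after rescaling) to Slc16a7 (1.44, 2.06 and 2.57, then 19.9, 24.2 and 33.3), and the SLC26 anion transporters, from Slc26a6 to Slc26a9, a chloride channel of gastric epithelium (0.616, 1.51 and 2.36, then 41.9, 51.4 and 93.9).

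Acacb, the carboxylase whose product restrains mitochondrial fatty acid entry, had an FPKM of 0.726, 0.659 and 0.539 and then 10.9, 12 and 18.1. Among transcription factors, Sox2, a factor of foregut endoderm, had 37.2, 46.1 and 46.2 and then 9.62, 6.55 and 5.34, and Sox21, of the same SOXB group, had 10.5, 15.3 and 18.9 and then 29.4, 15.0 and 20.2. Sox2 fell by 2.46 (standard error 0.21, limma adjusted p = 5.27e-05), and the difference of Sox21 was 0.49 (adjusted p = 0.155). Sox10, of glia and neural crest, gave way to Sox9 in the SOXE group, beside the lower enteric glial markers named above, and Tead2 to Tead3, which both fell. Among plastins, which bundle actin, Pls3 had 36.6, 31.7 and 32.0 and then 23.1, 18.9 and 19.3, and Pls1, the form of epithelial microvilli, had 2.92, 4.69 and 5.45 and then 43.9, 33.6 and 35.7. The IGF binding proteins changed beside their ligands. Igfbp2 had 365, 451 and 553 and then 218, 159 and 140.3, and Igfbp7 had 10.6, 36.9 and 65.1 and then 309, 184 and 176. Igfbp2 and Pls3 were called lower only without rescaling, whereas Igfbp7 and Pls1 were called higher with and without it.

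At the small end, Psme1 and Psme2, neighbouring subunits of the proteasome activator PA28, were not called and stood at 122, 128 and 135 against 116, 114 and 128 FPKM in the fetal and 75.5 to 111 against 82.4 to 133 in the weaned libraries.

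The libraries between the ends, which had no part in choosing the leaders, showed when the order turned. At E15.5 the fetal leader was still above the weaned one in 56 of 61 pairs, and at W2 the weaned leader was above in 52. The order turned once in 48 pairs and more often in 13. Taking the time point from which the weaned leader stayed above, 20 pairs turned before birth, 32 from D1 to W2 and 9 at W3. The time points with most turns were W2 with 13 pairs and W3 with 9. Of the 20 largest changes, all turned once, 8 of them before birth (from E15.5 in claudins and cadherins to E18.5 in connexins and KCNE), 7 from D1 to W2 and 5 at W3 (Cym, Mfap2, Adh5, Igf2 and Tmed9 as the displaced leaders). Among the 231 symbol-based families with a change of leader, the order was as in the fetal group at E15.5 in 199 and as in the weaned group at W2 in 190.

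**Figure D5:**
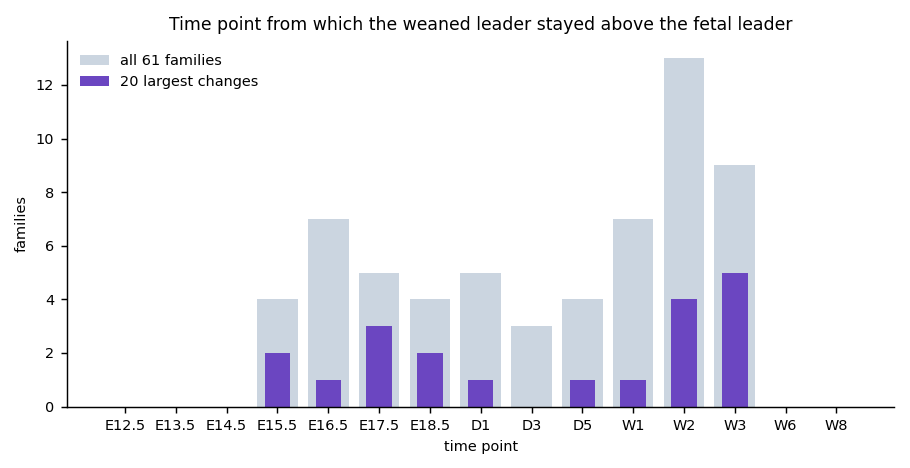
Number of families (vertical axis) by the time point (horizontal axis) from which the weaned leader stayed above the fetal leader; grey bars are all 61 families and purple bars the 20 with the largest ratio changes. Turns occurred at every time point from E15.5 to W3, with 13 at W2.

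The position of the genes was another feature the choice did not use. In 8 of the 61 pairs both leaders lay on the same chromosome, and in 6 they were within 1000 kb. Those shown are Fads2 and Fads3 (4.49 kb apart), Psme1 and Psme2 (5.91 kb), Aldh3a1 and Aldh3a2 (6.07 kb), Lgals1 and Lgals2 (71.2 kb) and Adh5 and Adh7 (211 kb). In the files' build, GRCm38.p2, Lgals2 lies on chromosome 15 from 78850860 to 78855529 and Lgals1 from 78926725 to 78930465, and Fads3 on chromosome 19 from 10040855 to 10059671 and Fads2 from 10064164 to 10101503. Aldh3a1 lies on chromosome 11 from 61207537 to 61218418, next to Aldh3a2 from 61224486 to 61267465. Adh7 lies on chromosome 3 from 138199670 to 138232042 and Adh5 from 138443164 to 138455499. So 4 of the largest 20 exchanges were between genes within 1000 kb of each other. Of the 231 symbol-based families with a change of leader, 9 had their leaders within 1000 kb. Little transcript sequence was shared: of 122 leaders, 114 had no stretch of 50 bases in common with another member of their family in the GENCODE transcripts.

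Among families that did not change leader, 142 had at least 1 member called higher and 1 called lower relative to the rest of the family, and in 82 of these 1 gene led in all 6 libraries. In 37 of them the family had 2 members, where a gain of one relative to the other is also the loss of the other, so that 1 call fixes its opposite. In larger families a change of a member that dominates the sum also moves the relative values of the others, so opposite calls there are partly tied as well. Among families of 3 or more members, 105 of 164 without a change of leader had such calls, and over symbol-based families the share was 60.8%, a background near the 64% of the listed ones. Of the 10 with the widest gap between the member that gained most and the one that lost most, all but 1 are described here. Carbonic anhydrases hydrate carbon dioxide and supply protons and bicarbonate. Car2 led throughout and went from 14.47, 19.9 and 26.5 to 1045, 1062 and 1083 FPKM, whereas Car11, an inactive member, went from 8.76, 9.12 and 7.17 to 2.83, 1.70 and 2.63. Car2 rose by 5.68 and Car11 fell by 1.48 on the log2 scale (limma adjusted p = 3.55e-06 and 0.000201).

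Pla2g1b, a secreted phospholipase A2, led its family in all libraries and went from 67.1, 65.9 and 76.6 to 29727, 77308 and 65295 FPKM, while Pla2g2f was at 1.19 or less at both ends. Pdia2, a protein disulfide isomerase of secretory cells, went from 0.715, 0.816 and 1.77 to 384, 446 and 517, beside Pdia4, which fell from 109, 100.5 and 102 to 57.3, 43.9 and 47.5, a fall not called after rescaling.

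Dlk1, an inhibitor of differentiation of the Notch ligand type, fell from 374, 514 and 540.2 to 5.99, 2.24 and 2.17 FPKM, by 6.83 on the log2 scale (limma adjusted p = 1.06e-05), and its partner Dlk2 was at 3.05 or less at both ends; its relative gain mirrors the fall of Dlk1. Fabp7, a fatty acid binding protein of glia, fell from 33.2, 47.5 and 54.7 to 5.15, 2.85 and 2.1, and Fabp3, the heart form, rose from 5.70, 3.71 and 2.92 to 413, 594 and 437, with the epidermal form Fabp5 leading throughout. Tnni1, the slow muscle troponin I, had 3.30, 1.53 and 1.27 and then 0.746, 0.420 and 0.164, called lower only without rescaling, and Tnni3, the cardiac form, rose from 2.71, 2.72 and 2.45 to 199, 219.5 and 258. Cox6b2, a form best known from testis, fell from 61, 60.0 and 61.3 to 14.7, 4.49 and 2.86, against Cox6b1, which rose from 579, 635 and 640.2 to 1639, 1712 and 1283.

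Gsta1 and Gsta4, glutathione transferases, both rose but at unequal pace, Gsta1 from 2.51, 3.46 and 6.06 to 1313, 2036 and 1296 FPKM and Gsta4 from 141, 207 and 283 to 1671, 2045 and 1480. In the type I keratins, the intermediate filaments of epithelia, Krt20 rose from 2.84, 2.42 and 1.65 to 183, 124 and 64.1, and Krt15, of squamous basal cells, had 23.0, 127 and 343 and then 19.2, 5.11 and 1.87, a difference of -3.85 that was not called (limma adjusted p = 0.0115). Krt15, itself a member of the forestomach list, was lowest at W8, the library with the lowest sum of that list.

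Among families with 1 leader throughout, the 5 with the largest sums were led by Tff1, Pla2g1b, Gkn2, Rps27 and Eef1a1. Tff1, a trefoil peptide of surface mucus, held 86.3% to 90.9% of the trefoil factors before and 90.8% to 92.3% after weaning although its own FPKM went from 153, 175 and 229.7 to 77497, 112832 and 65565. Gkn2, a gastrokine, held 51.6% to 52.8% and 54.7% to 58.2%. Rps27, a ribosomal protein, held 92.8% to 93.1% and 85.8% to 87.7%, and Eef1a1, the elongation factor, at least 99.8% in all 6 libraries. Over the 131 such families with 2 tested members or more, the leader was called higher in 39, lower in 59 and not called in 33. These calls are without rescaling. On that scale 23.1% of all listed members tested were called higher and 43.1% lower, and of all genes 13.8% and 52.6%. The counts are therefore not read as a trait of families with 1 leader.

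In the gene test without reference to the family, 73 of 283 listed families with at least 2 tested members had 1 member called higher and another lower (25.8%). Over 1706 symbol-based families that also had at least 2 tested members the share was 17.4%. As for the change of leader, these were not matched in size or level, and the gap is not read as an excess. After rescaling there were 77, of which 53 were families also found without it. The beta globins, known for an embryonic to adult exchange, changed within the fetal group and so were not counted: Hbb-y, the embryonic form, led at E12.5 with 3298 FPKM against 880.3 of Hbb-bs, and Hbb-bs led from E13.5 (1720 against 1360) on. They were named after their values were seen. Hbb-bs and Hbb-bt are near-identical copies between which reads may be split.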

How the data were processed

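Whole stomachs of C57BL/6 mice at 15 time points were profiled by RNA-seq, with 1 library for each. The study's notes on sampling describe pools of 3 embryos for a sample from E12.5 to E14.5, smaller pools from E15.5 to E17.5 and single stomachs at the later ages. They do not single out the RNA libraries. The study's methods name FastQC, HISAT2 and StringTie with a GENCODE annotation of GRCm38.p2, the submitters' processing notes name Bowtie 0.12.2, and the methods name liver as a source of RNA where the labels say stomach. The values deposited by the authors are FPKM per gene with confidence bounds; no read counts were analysed here, and depth was estimated from those bounds.

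Entries of a gene symbol were summed and log2(FPKM + 1) was tested with limma 3.58.1 in R 4.3.3 (E12.5, E13.5 and E14.5 against W3, W6 and W8, Benjamini-Hochberg adjusted p under 0.01). Symbols needed an FPKM of at least 1 in 1 of the 6 libraries. A difference on this scale understates the change of low genes. An exact permutation test of 3 against 3 cannot give a p below 0.1, so none is printed. For the relative test, log2 of the summed other family members plus 1 was subtracted. The standard errors treat ages as replicates. Scripts were tested on simulated data.

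Families, marker lists and rules were chosen with earlier results of these data known. Named were the 20 families with the largest change of the leaders' log2 ratio, the 10 with the widest relative gap without a change of leader, the 5 with the largest sum under 1 leader and 10 symbol-based families; other genes were named after their values were seen. Symbol-based families share a letter stem and hold at most 12 genes. Shared stretches were counted in GENCODE vM21 transcripts and promoters taken from RefSeq. Alternatives were other pseudocounts, filters, scalings, leader limits, fetal groups and leaving out each library. Some genes and the results that need them are not reported here.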

Additional observations from a re-analysis of the deposited data

How the results depend on the processing

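The counts of genes called moved most with scaling: median-ratio scaling gave 4191 higher and 4832 lower and quantile normalization 3858 and 5454, against 2218 and 8437. Under median-ratio scaling the uncalled differences of 2 fetal leaders changed sign and were called, Atp1b3 at 0.56 (limma adjusted p = 0.00272) and Tmed9 at 0.73 (0.0014). The number of families with a change of leading member was 37 with leaders of at least 20 FPKM, 94 with leaders taken by the group mean and 30 with E12.5 to E17.5 as the fetal group, against 61. Leaving out each library in turn gave 1761 to 2320 genes higher, 7060 to 8659 lower, 245 to 304 members higher and 299 to 368 lower relative to their family, 60 to 79 families with opposite calls and 63 to 72 with a change of leader; fewer libraries can only add to the last count. Of the other values of the leaders of the 20 largest pairs, 787 kept their direction and side of the threshold or moved by less than the spread, 39 moved, 8 became called and 4 lost their call (Cldn18, Rbp2 and Cdh1 against E12.5 to E17.5, and Adh5 under median-ratio scaling). No paired analysis was possible because the replicate numbers only order the ages within each group. Levels of genes near 0 at 1 end, such as Kcne1l and Kcne2, depend on the pseudocount, and with 1 library for each age the spread between animals is unknown.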

Other observations

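Outside the listed families, the genes grouped by a shared symbol stem gave further exchanges, which were picked by the size of their ratio change and carry no test of it. A shared stem does not show common descent, and Bcas1 and Bcas2 are unrelated proteins. In the Lypd stem, Lypd2 had an FPKM of 12.4, 30.0 and 55.0 at E12.5, E13.5 and E14.5 and 3.84, 3.43 and 0.534 at W3, W6 and W8, while Lypd8, a secreted protein that binds flagella of gut bacteria, had 4.76, 7.83 and 11.8 and then 1152, 1450 and 653. The ratio changed by 10.05 on the log2 scale, and the order turned once, from E18.5. Among quinone reductases, Nqo2 had 5.44, 5.10 and 6.43 and then 4.70, 3.53 and 3.71, and Nqo1, an enzyme induced by oxidative stress, had 3.53, 5.01 and 5.42 and then 316, 241 and 238. Nqo1 rose by 5.56 (standard error 0.19, limma adjusted p = 2.68e-06) and Nqo2 was not called (adjusted p = 0.0316).

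The retinol dehydrogenases add to the retinoid families. Rdh10, the main retinol dehydrogenase of the embryo, had an FPKM of 26.9, 26.0 and 22.4 and then 12.6, 11 and 11, and Rdh7 had 0.0363, 0.0651 and 0.0843 and then 23.9, 32.9 and 39.0. Rdh10 fell by 1.06 (standard error 0.13, limma adjusted p = 0.000241), a call lost under median-ratio scaling, and Rdh7 rose by 4.93 (standard error 0.19, adjusted p = 3.76e-06). Among ABC transporters of the C group, Abcc5 had 29.7, 29.5 and 28.7 and then 8.87, 9.10 and 13.9, and Abcc3, an exporter of organic anions, had 1.20, 1.47 and 1.99 and then 45.3, 43.9 and 41.7. Itm2a gave way to Itm2b, Zc3hav1l to Zc3hav1, Glod4 to Glod5, Tstd2 to Tstd1 and Vstm4 to Vstm2b. In these 5 pairs the fetal leader was called lower and the weaned leader higher, but Glod4 and Tstd2 were not called under median-ratio scaling.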
